A study of Homo sapiens with 12 samples.

Results

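The genes described here are 48 genes of the G1/S transition and of DNA replication, measured in U2OS-ERα cells, a human osteosarcoma line that carries estrogen receptor α. They were chosen by function, with earlier results of these data known. Each was read from the probe set that carried its symbol alone and had the highest mean over the arrays. All 48 of 48 were measured, among 29094 probe sets tested. RNA was hybridised to 12 Affymetrix Human Gene 1.0 ST arrays, 3 labelled biological replicates in each of 4 groups. The groups were SRC-1 siRNA with 17-β-estradiol, SRC-1 siRNA with ethanol vehicle, non-targeting siRNA with estradiol, and non-targeting siRNA with vehicle. All cells received 50 nM of a siRNA pool by lipofection and were then kept in IMEM with charcoal-stripped serum, which is poor in steroid hormone, for the 3 h of treatment. The estradiol dose, the way in which the receptor was introduced, whether the line was a single clone, and how the replicate cultures were separated were not given in the sources used here. The p-values therefore measure the spread between these arrays.

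Estradiol binds estrogen receptor α, which then acts on chromatin with coactivators such as SRC-1, the product of NCOA1, and in breast cancer cells this leads from G1 into S phase. The E2F factors are held in check by the retinoblastoma protein until cyclin D and cyclin E kinases phosphorylate it, and freed E2F1 to E2F3 then activate genes for origin licensing, the replicative helicase, the polymerases and nucleotide synthesis. E2F7 and E2F8 are the atypical members that repress the same genes later in S phase.

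The targeted gene and the arrays were checked first. NCOA1 stood at 6.79, 6.88 and 6.92 log2 under estradiol, against 6.18, 5.62 and 5.78 log2 under vehicle, in the cells with SRC-1 siRNA. NCOA1 in the cells with non-targeting siRNA stood at 9.15, 9.06 and 9.02 log2 under estradiol, against 8.81, 8.72 and 8.83 log2 under vehicle. The knockdown was -2.93 log2 under vehicle and -2.21 log2 under estradiol, and with SRC-1 siRNA the gene was 1.00 log2 higher under estradiol than under vehicle. ESR1, the receptor gene, averaged 12.11 log2 over the arrays and was not called in any of the 7 comparisons. Array medians lay between 6.858 and 6.901 log2, and arrays of a group correlated at 0.9967 to 0.9979. VIM averaged 12.46, SPARC 12.54 and FN1 11.69 log2 among the mesenchymal markers, while COL1A2 and ALPL of the same list averaged 6.62 and 7.58 log2. That list also included ESR1. PTPRC of the leukocyte list averaged 4.19 and PECAM1 of the endothelial list 5.10 log2, under the lower quartile of the arrays, 5.13 to 5.19. KRT8 and KRT18, both on the epithelial list, averaged 11.16 and 11.91 log2, while CDH1 averaged 5.92 and EPCAM 7.35 log2. In the average estradiol effect, 0 of 6 epithelial and 0 of 5 endothelial markers were called by limma, with 2 and 0 at an unadjusted p under 0.05. Of all probe sets 9.96% were called and 25.8% had such a p. Of the 10 mesenchymal markers, CDH2, which holds neighbouring cells together, was called, 0.11 log2 lower (adjusted p = 0.03), and with SRC-1 siRNA alone COL1A2, a collagen gene at 6.62 log2 on average, was 0.22 log2 lower. With SRC-1 siRNA averaged over treatments 3 of the 10 were called by limma, beside 5.10% of all probe sets. ALPL, an alkaline phosphatase of bone at 7.58 log2, differed by -0.33 log2, THY1 by -0.21 log2 and CDH2 by 0.20 log2 (adjusted p = 0.000179, 0.0151 and 0.00297). ALPL was called lower under both treatments, THY1 lower under vehicle and CDH2 higher under estradiol. LYZ, 1 of 5 leukocyte markers, was called for the average estradiol effect, 0.68 log2 higher, at 4.51 to 5.00 log2 under estradiol and 3.98 to 4.15 log2 under vehicle, all below the lower quartile of the arrays.

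**Figure D1:**
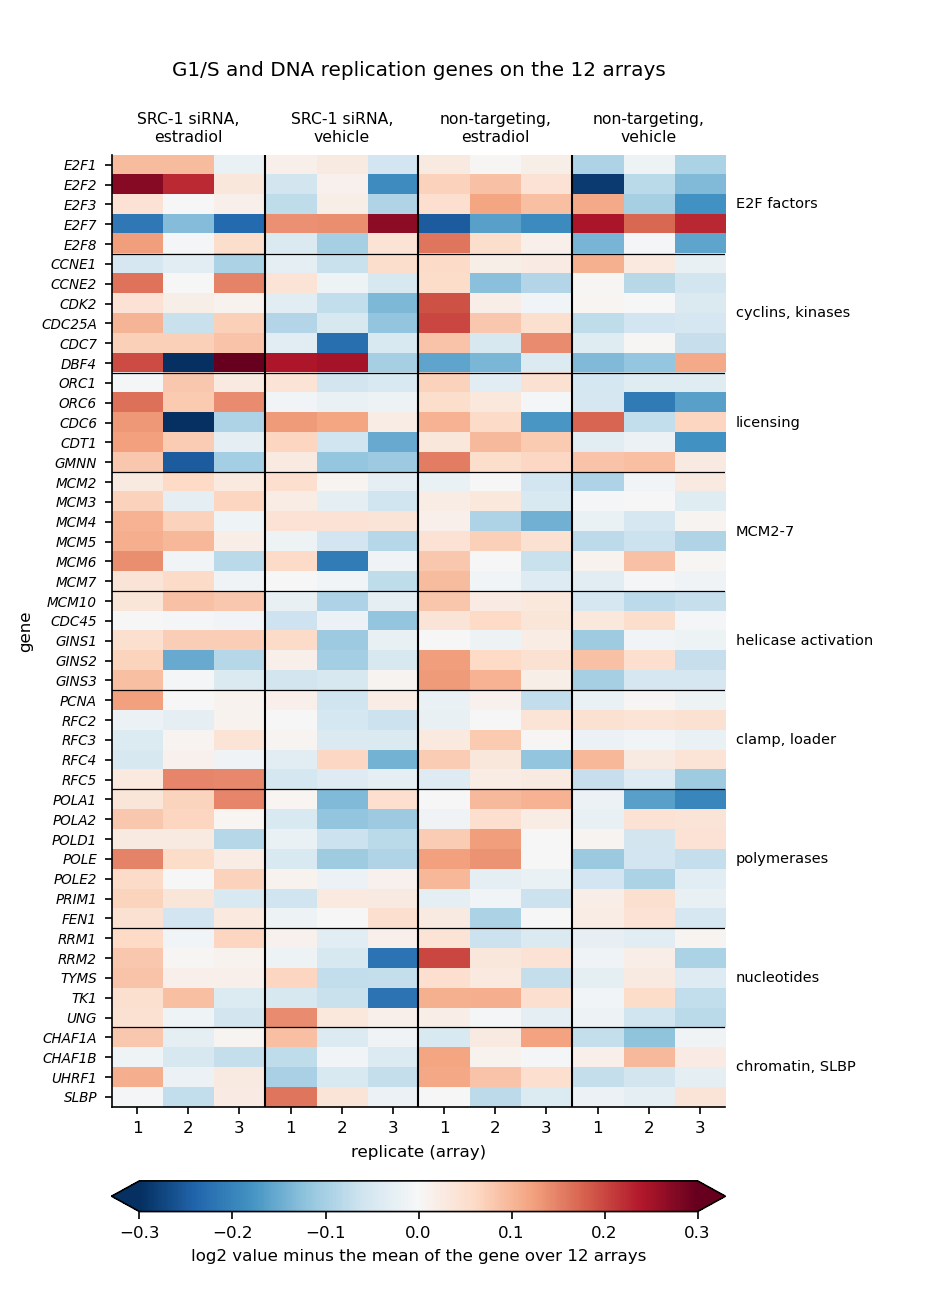
Each row is 1 of the 48 genes, grouped by role, and each column 1 of the 12 arrays; the colour gives the log2 value minus the mean of the gene over all arrays, cut off at 0.3 in either direction. E2F7 is low on all 6 estradiol arrays and high on all 6 vehicle arrays, E2F2, ORC6 and MCM5 show the opposite order within each siRNA, and most other rows are pale.

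With estradiol averaged over both siRNAs, 8 of the 48 genes rose and 1 fell. The risers were E2F2, CDC25A, ORC6, MCM5, MCM10, RFC5, POLE and UHRF1, with log2 differences between 0.11 and 0.24, and the gene that fell was E2F7, at -0.40 log2. A call required a limma p under 0.01 together with an adjusted p under 0.05, by Benjamini and Hochberg's method across the whole array. These 9 of 48 make 18.8%, beside 9.96% of all probe sets tested (6.11% higher and 3.85% lower), 10.6% with 1 probe set per symbol, and 14.3% of the probe sets at least as bright as the second dimmest of the 48. In a single siRNA arm the same call was reached by E2F7 alone, lower in each: 1 of 48 with SRC-1 siRNA, where 6.88% of all probe sets were called and 2.39% were lower, and 1 of 48 with non-targeting siRNA, where 2.73% were called and 0.873% were lower. RNA was taken from whole cultures, so a change in the share of cells in a phase and a change in RNA per cell cannot be told apart.

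The averaged differences leaned upward. Of the 48 genes, 35 had a log2 difference above 0, or 72.9%, beside 43.4% of all probe sets, and the median was 0.05 log2 beside -0.02 log2. The lean was not particular to the 48. In lists described below, 77.8% of G2/M and mitosis genes, 65.7% of other replication factors and 55.2% of other G1/S regulators lay above 0. An unadjusted p under 0.05 was reached by 20 of 48, where 25.8% of all probe sets reached it. With SRC-1 siRNA alone 11 of 48 reached it, beside 23.2% of all probe sets, and with non-targeting siRNA alone 12 of 48, beside 13.3%. The sign was the same with both siRNAs for 36 of 48 genes, 29 above 0 and 7 below, or 75%, beside 66.4% of all probe sets. Across the 48 genes the differences measured with each siRNA, which share no array, had a Pearson correlation of 0.799, and 0.667 without E2F7, beside 0.628 over all probe sets; the genes share the arrays and are not independent points. On all 6 estradiol arrays 8 genes lay above the vehicle arrays of the same siRNA, namely E2F2, ORC6, MCM5, MCM10, RFC5, POLE, RRM2 and UHRF1, where 5.26% of all probe sets did so. E2F7 alone lay below them, where 3.36% did.

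**Figure D2:**
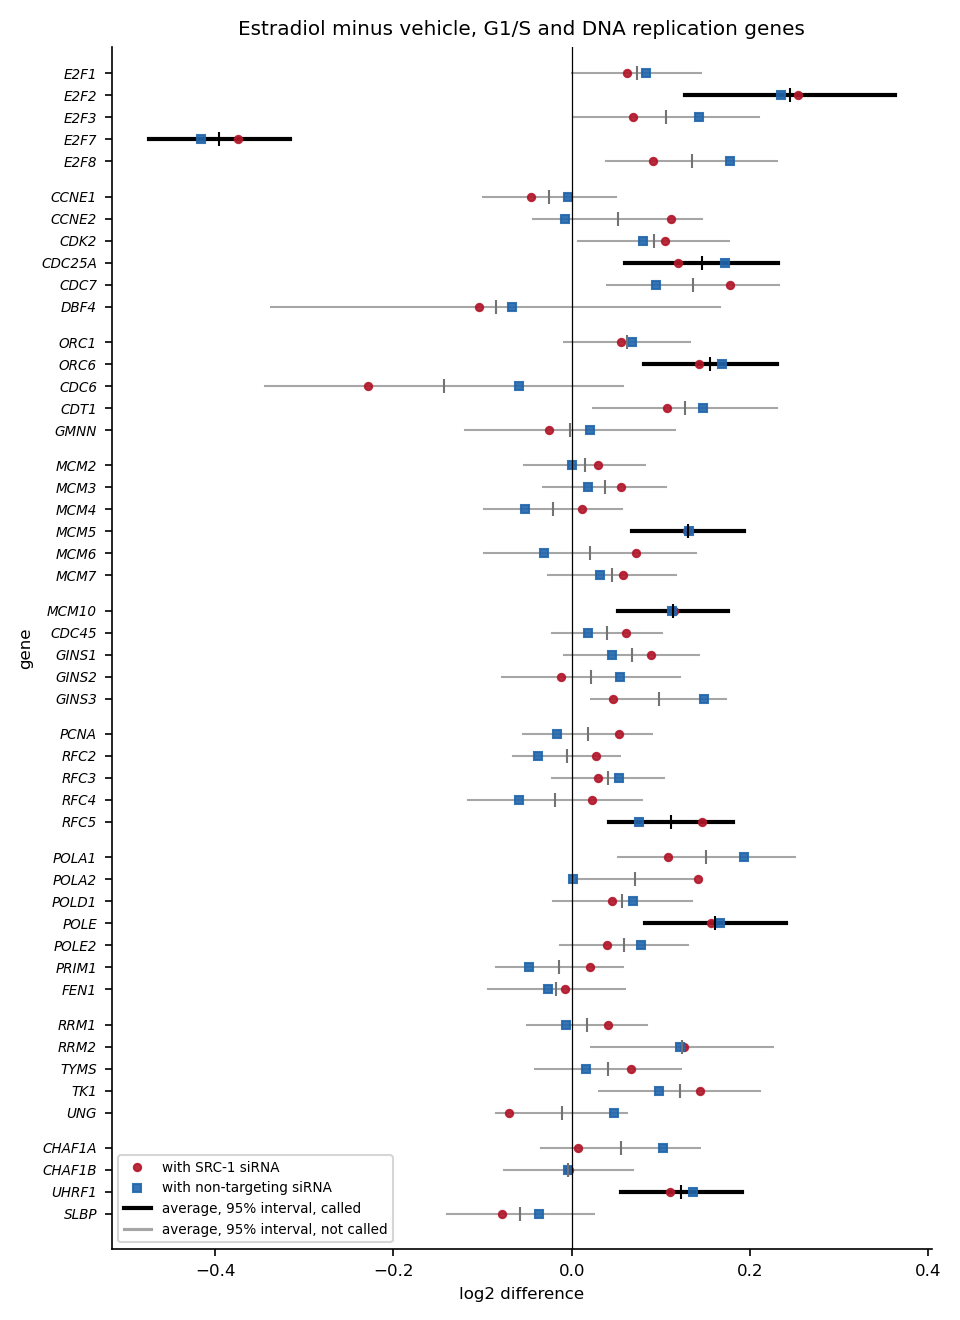
Each row is a gene and the horizontal axis gives the log2 difference, estradiol minus vehicle; circles stand for SRC-1 siRNA, squares for non-targeting siRNA, and the bar for the average with its 95% confidence interval, black where called. E2F7 stands alone at -0.40 log2 and the 8 called risers lie between 0.11 and 0.24 log2, close to uncalled neighbours such as POLA1 at 0.15 and CDC7 at 0.14 log2.

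Among the E2F factors, the repressor E2F7 fell and the activator E2F2 rose, while the repressor E2F8 was not called. E2F7 with SRC-1 siRNA stood at 10.65, 10.73 and 10.63 log2 under estradiol, against 11.00, 11.00 and 11.13 log2 under vehicle. E2F7 with non-targeting siRNA stood at 10.61, 10.70 and 10.67 log2 under estradiol, against 11.11, 11.03 and 11.09 log2 under vehicle. The 2 treatments did not overlap with either siRNA, and the gap exceeded the spread between replicates. E2F7 fell by 0.40 ± 0.04 log2 (SE) on average, or 1.32-fold (adjusted p = 3.15e-05), by 0.37 log2 with SRC-1 siRNA (adjusted p = 0.00118) and by 0.42 log2 with non-targeting siRNA (adjusted p = 0.00074). The difference between the arms was 0.04 log2 (95% confidence interval -0.12 to 0.20, adjusted p = 0.937).

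E2F2, an activator, with SRC-1 siRNA stood at 7.52, 7.48 and 7.29 log2 under estradiol, against 7.20, 7.27 and 7.06 log2 under vehicle. E2F2 with non-targeting siRNA stood at 7.32, 7.34 and 7.30 log2 under estradiol, against 6.96, 7.17 and 7.12 log2 under vehicle. The estradiol arrays lay above the vehicle arrays in each arm, although the lowest of the first set came close to the highest of the second in the SRC-1 siRNA cells. E2F2 rose by 0.24 ± 0.05 log2, or 1.18-fold (adjusted p = 0.0147). E2F8, the other atypical repressor, with SRC-1 siRNA stood at 8.20, 8.07 and 8.13 log2 under estradiol, against 8.03, 7.98 and 8.12 log2 under vehicle. E2F8 with non-targeting siRNA stood at 8.24, 8.13 and 8.09 log2 under estradiol, against 7.94, 8.07 and 7.92 log2 under vehicle. It overlapped between treatments in the SRC-1 siRNA cells and was not called, with an average difference of 0.13 log2, opposite in sign to E2F7 (adjusted p = 0.0774). The activators E2F1 and E2F3 had average differences of 0.07 and 0.11 log2 and were not called either (adjusted p = 0.192 and 0.188).

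The promoter windows of the gene that fell and of the riser with the greatest difference are shown because their letters differ in the E2F site. They run from 250 bases before to 50 after the start of the gene (RefSeq, GRCh38.p14), both genes on the minus strand, at chr12:77065520-77065819 for E2F7 and chr1:23531184-23531483 for E2F2. Capitals mark an E2F site, searched as TTTCCCGC, TTTCGCGC, TTTGCCGC and TTTGGCGC on both strands, or a CCAAT box, which reads ATTGG on the other strand.
E2F7: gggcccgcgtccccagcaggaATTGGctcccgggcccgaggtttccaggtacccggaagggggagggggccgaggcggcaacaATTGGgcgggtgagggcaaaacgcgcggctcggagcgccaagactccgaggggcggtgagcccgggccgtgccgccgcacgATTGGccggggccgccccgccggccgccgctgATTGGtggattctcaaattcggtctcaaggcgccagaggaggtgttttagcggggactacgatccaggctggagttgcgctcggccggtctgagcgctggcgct
E2F2: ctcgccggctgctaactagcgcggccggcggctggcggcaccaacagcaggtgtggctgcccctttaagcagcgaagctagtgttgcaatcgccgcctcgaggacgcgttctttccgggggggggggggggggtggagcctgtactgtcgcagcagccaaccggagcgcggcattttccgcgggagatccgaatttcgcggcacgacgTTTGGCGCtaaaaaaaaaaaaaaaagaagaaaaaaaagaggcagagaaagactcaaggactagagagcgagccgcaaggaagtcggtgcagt
The E2F7 window held 4 CCAAT boxes, all reading ATTGG in this direction, and none of the searched E2F letters, whereas the E2F2 window held TTTGGCGC once and no CCAAT box. No match says only that these letters are not in this window.

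Of the cyclins, kinases and phosphatase that drive the G1/S step, 1 of 6 was called, beside 9.96% of all probe sets. CDC25A encodes the phosphatase that activates CDK2. CDC25A with SRC-1 siRNA stood at 9.16, 8.99 and 9.13 log2 under estradiol, against 8.97, 9.01 and 8.94 log2 under vehicle. CDC25A with non-targeting siRNA stood at 9.26, 9.14 and 9.11 log2 under estradiol, against 8.98, 9.002 and 9.01 log2 under vehicle. The treatments were apart in the non-targeting cells and overlapped in the SRC-1 siRNA cells, and the average rise was 0.15 ± 0.04 log2 (adjusted p = 0.0382). The call was lost when any of 10 of the 12 arrays was left out.

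CDC7, the kinase that fires licensed origins, with SRC-1 siRNA stood at 8.13, 8.13 and 8.14 log2 under estradiol, against 8.02, 7.83 and 8.01 log2 under vehicle. CDC7 with non-targeting siRNA stood at 8.14, 8.01 and 8.20 log2 under estradiol, against 8.02, 8.06 and 7.99 log2 under vehicle. Its 3 estradiol arrays with SRC-1 siRNA lay above vehicle, those with non-targeting siRNA overlapped, and at 0.14 log2 it was not called (adjusted p = 0.0773). DBF4, the activating subunit of CDC7, averaged 4.66 log2, dimmer than the lower quartile of every array, and a signal over background was not shown. DBF4 with SRC-1 siRNA stood at 4.86, 4.25 and 4.96 log2 under estradiol, against 4.90, 4.91 and 4.56 log2 under vehicle. DBF4 with non-targeting siRNA stood at 4.50, 4.52 and 4.62 log2 under estradiol, against 4.53, 4.55 and 4.78 log2 under vehicle. All groups overlapped, and no direction is given for it.

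CCNE1 and CCNE2 encode the E-type cyclins that bind CDK2. CCNE1 with SRC-1 siRNA stood at 10.28, 10.30 and 10.23 log2 under estradiol, against 10.30, 10.26 and 10.38 log2 under vehicle. CCNE1 with non-targeting siRNA stood at 10.39, 10.35 and 10.35 log2 under estradiol, against 10.44, 10.36 and 10.31 log2 under vehicle. Its treatments overlapped in both arms, with an average difference of -0.03 log2. CCNE2 with SRC-1 siRNA stood at 9.07, 8.90 and 9.05 log2 under estradiol, against 8.95, 8.89 and 8.86 log2 under vehicle. CCNE2 with non-targeting siRNA stood at 8.96, 8.78 and 8.82 log2 under estradiol, against 8.91, 8.82 and 8.85 log2 under vehicle. CCNE2 overlapped too, at 0.05 log2 on average, and CDK2 itself stood at 0.09 log2; none of the 3 was called (adjusted p = 0.686, 0.487 and 0.159).

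Origin licensing loads the MCM helicase onto DNA through the origin recognition complex, CDC6 and CDT1, and geminin (GMNN) blocks CDT1 after S phase has begun. Of these 5 genes only ORC6 was called for estradiol, beside 9.96% of all probe sets. ORC6, the smallest subunit of the complex, with SRC-1 siRNA stood at 9.15, 9.06 and 9.13 log2 under estradiol, against 8.98, 8.97 and 8.97 log2 under vehicle. ORC6 with non-targeting siRNA stood at 9.04, 9.02 and 8.98 log2 under estradiol, against 8.94, 8.77 and 8.82 log2 under vehicle. Estradiol arrays lay above vehicle arrays in both arms. Under each treatment ORC6 in the SRC-1 siRNA cells also lay above the non-targeting cells on every array. It rose by 0.16 ± 0.03 log2 with estradiol (adjusted p = 0.0146). Its average difference between SRC-1 and non-targeting siRNA, 0.11 log2, did not pass (adjusted p = 0.0842).

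CDC6 had the second lowest average difference, -0.14 log2, but was not called. CDC6 with SRC-1 siRNA stood at 11.14, 10.55 and 10.91 log2 under estradiol, against 11.13, 11.12 and 11.03 log2 under vehicle. CDC6 with non-targeting siRNA stood at 11.11, 11.06 and 10.83 log2 under estradiol, against 11.18, 10.93 and 11.07 log2 under vehicle. A single estradiol array with SRC-1 siRNA, replicate 2, stood at 10.55 log2, lower than the other 11 arrays, and the 95% interval of the average ran from -0.34 to 0.06 log2. GMNN was also lowest on that array. GMNN with SRC-1 siRNA stood at 9.06, 8.73 and 8.88 log2 under estradiol, against 9.01, 8.87 and 8.87 log2 under vehicle. GMNN with non-targeting siRNA stood at 9.14, 9.03 and 9.04 log2 under estradiol, against 9.07, 9.07 and 9.01 log2 under vehicle. Its estradiol difference was near 0 (95% interval -0.12 to 0.12), and its difference between SRC-1 and non-targeting siRNA was -0.16 log2 on average, which did not pass (adjusted p = 0.134). CDT1 and ORC1 had estradiol differences of 0.13 and 0.06 log2 (adjusted p = 0.114 and 0.255).

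The MCM2 to MCM7 proteins form the ring of the replicative helicase. Of their 6 genes 1 was called, beside 9.96% of all probe sets. MCM5 with SRC-1 siRNA stood at 10.57, 10.56 and 10.48 log2 under estradiol, against 10.44, 10.40 and 10.37 log2 under vehicle. MCM5 with non-targeting siRNA stood at 10.50, 10.53 and 10.50 log2 under estradiol, against 10.38, 10.39 and 10.37 log2 under vehicle. All estradiol arrays lay above all vehicle arrays of their arm, and MCM5 rose by 0.13 ± 0.03 log2 (adjusted p = 0.0151), by the same 0.13 log2 in each arm. The other 5 subunits had averages between -0.02 (MCM4) and 0.04 log2 (MCM7) and none was called, with adjusted p from 0.42 to 0.85. The interval of MCM4, -0.10 to 0.06, and that of MCM5, 0.07 to 0.19, did not meet; the difference between genes was not tested.

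MCM4 was one of the highest between siRNAs under estradiol. MCM4 under estradiol stood at 10.56, 10.53 and 10.45 log2 with SRC-1 siRNA, against 10.48, 10.37 and 10.32 log2 with non-targeting siRNA. MCM4 under vehicle stood at 10.50, 10.50 and 10.50 log2 with SRC-1 siRNA, against 10.44, 10.41 and 10.47 log2 with non-targeting siRNA. The siRNAs overlapped under estradiol and not under vehicle, and the differences of 0.13 and 0.06 log2 were not called (adjusted p = 0.248 and 0.67). MCM6 with SRC-1 siRNA stood at 9.17, 9.02 and 8.95 log2 under estradiol, against 9.09, 8.82 and 9.02 log2 under vehicle. MCM6 with non-targeting siRNA stood at 9.11, 9.03 and 8.96 log2 under estradiol, against 9.04, 9.12 and 9.03 log2 under vehicle. Its treatments overlapped in both arms.

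The helicase is switched on by CDC45 and the GINS complex, with MCM10 at the final step. Of these 5 genes 1 was called, beside 9.96% of all probe sets. MCM10 with SRC-1 siRNA stood at 10.46, 10.52 and 10.51 log2 under estradiol, against 10.41, 10.34 and 10.40 log2 under vehicle. MCM10 with non-targeting siRNA stood at 10.51, 10.45 and 10.46 log2 under estradiol, against 10.38, 10.35 and 10.36 log2 under vehicle. The treatments did not overlap, and MCM10 rose by 0.11 ± 0.03 log2 (adjusted p = 0.0262), with the call kept in 6 of 12 fits that left out an array. GINS3 with SRC-1 siRNA stood at 9.76, 9.66 and 9.62 log2 under estradiol, against 9.61, 9.62 and 9.67 log2 under vehicle. GINS3 with non-targeting siRNA stood at 9.79, 9.77 and 9.68 log2 under estradiol, against 9.57, 9.62 and 9.61 log2 under vehicle. GINS3 was separated by treatment in the non-targeting cells only, and its average of 0.10 log2 was not called (adjusted p = 0.1). GINS2 with SRC-1 siRNA stood at 11.23, 11.02 and 11.08 log2 under estradiol, against 11.18, 11.07 and 11.12 log2 under vehicle. GINS2 with non-targeting siRNA stood at 11.29, 11.23 and 11.21 log2 under estradiol, against 11.26, 11.22 and 11.10 log2 under vehicle. It overlapped in both arms at 0.02 log2, and GINS1 and CDC45 stood at 0.07 and 0.04 log2, so all 5 differences were above 0 and 4 did not pass.

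PCNA is the sliding clamp that holds polymerases on DNA, and the RFC proteins load it. RFC5 with SRC-1 siRNA stood at 9.70, 9.82 and 9.81 log2 under estradiol, against 9.62, 9.63 and 9.64 log2 under vehicle. RFC5 with non-targeting siRNA stood at 9.63, 9.69 and 9.70 log2 under estradiol, against 9.60, 9.63 and 9.56 log2 under vehicle. RFC5 was above vehicle on all estradiol arrays, by little in the non-targeting cells, and its rise of 0.11 ± 0.03 log2 passed narrowly (adjusted p = 0.0492), with the call kept in 1 of 12 fits that left out an array. PCNA had a difference of 0.02 log2 with a 95% interval of -0.05 to 0.09, and RFC2, RFC3 and RFC4 lay at -0.01, 0.04 and -0.02 log2. RFC4 with SRC-1 siRNA stood at 10.25, 10.32 and 10.29 log2 under estradiol, against 10.27, 10.36 and 10.16 log2 under vehicle. RFC4 with non-targeting siRNA stood at 10.38, 10.34 and 10.18 log2 under estradiol, against 10.40, 10.33 and 10.34 log2 under vehicle. None of these 4 was called, so this role had 1 call among 5 genes, beside 9.96% of all probe sets.

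Among the polymerases, primase and flap endonuclease, 1 of 7 was called, beside 9.96% of all probe sets. POLE, the catalytic subunit of the leading-strand polymerase, with SRC-1 siRNA stood at 9.32, 9.23 and 9.20 log2 under estradiol, against 9.13, 9.07 and 9.08 log2 under vehicle. POLE with non-targeting siRNA stood at 9.30, 9.31 and 9.17 log2 under estradiol, against 9.06, 9.11 and 9.10 log2 under vehicle. The treatments did not overlap in either arm, and POLE rose by 0.16 ± 0.04 log2, or 1.12-fold (adjusted p = 0.0158). POLA1, the catalytic subunit of the priming polymerase, with SRC-1 siRNA stood at 8.22, 8.25 and 8.33 log2 under estradiol, against 8.19, 8.05 and 8.24 log2 under vehicle. POLA1 with non-targeting siRNA stood at 8.19, 8.28 and 8.29 log2 under estradiol, against 8.17, 8.02 and 7.99 log2 under vehicle. It was nearly as high at 0.15 log2 but overlapped in the SRC-1 siRNA cells and was not called (adjusted p = 0.0595).

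POLA2, which anchors that polymerase, had the highest difference between the estradiol effects of the arms. POLA2 with SRC-1 siRNA stood at 9.76, 9.75 and 9.69 log2 under estradiol, against 9.64, 9.56 and 9.57 log2 under vehicle. POLA2 with non-targeting siRNA stood at 9.67, 9.73 and 9.70 log2 under estradiol, against 9.66, 9.73 and 9.72 log2 under vehicle. Its estradiol arrays lay above vehicle in the SRC-1 siRNA cells and overlapped in the non-targeting cells, but the difference of 0.14 log2 had an adjusted p of 0.674 over all probe sets. POLD1, POLE2, PRIM1 and FEN1 had estradiol averages between -0.02 and 0.06 log2, none called.

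The genes that supply deoxynucleotides, grouped with UNG for uracil removal, had 0 of 5 called by limma, beside 9.96% of all probe sets. TK1 and RRM2, 2 of the 5, had an unadjusted p under 0.05, beside 25.8% of all probe sets. RRM2, the small subunit of ribonucleotide reductase, with SRC-1 siRNA stood at 10.31, 10.23 and 10.24 log2 under estradiol, against 10.22, 10.18 and 10.01 log2 under vehicle. RRM2 with non-targeting siRNA stood at 10.43, 10.27 and 10.27 log2 under estradiol, against 10.22, 10.25 and 10.14 log2 under vehicle. Treatments did not overlap, 1 array in each arm stood apart from its replicates, and 0.12 log2 was not called (adjusted p = 0.12). TK1, thymidine kinase, with SRC-1 siRNA stood at 11.04, 11.08 and 10.95 log2 under estradiol, against 10.95, 10.93 and 10.77 log2 under vehicle. TK1 with non-targeting siRNA stood at 11.10, 11.10 and 11.05 log2 under estradiol, against 10.98, 11.05 and 10.92 log2 under vehicle. TK1 overlapped between treatments with non-targeting siRNA only and was at 0.12 log2 (adjusted p = 0.089), and its lowest array was a vehicle array with SRC-1 siRNA. UNG, which removes uracil from DNA, with SRC-1 siRNA stood at 9.12, 9.06 and 9.02 log2 under estradiol, against 9.22, 9.11 and 9.09 log2 under vehicle. UNG with non-targeting siRNA stood at 9.10, 9.08 and 9.05 log2 under estradiol, against 9.06, 9.02 and 8.998 log2 under vehicle. UNG differences had opposite signs in the arms, -0.07 and 0.05 log2, and neither passed. RRM1 and TYMS had averages of 0.02 and 0.04 log2.

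Of the 4 genes that act on chromatin or histone mRNA at the fork, UHRF1 alone was called, beside 9.96% of all probe sets. UHRF1 brings DNA methyltransferase to newly copied DNA. UHRF1 with SRC-1 siRNA stood at 10.88, 10.76 and 10.80 log2 under estradiol, against 10.68, 10.73 and 10.70 log2 under vehicle. UHRF1 with non-targeting siRNA stood at 10.89, 10.86 and 10.83 log2 under estradiol, against 10.70, 10.72 and 10.75 log2 under vehicle. Estradiol arrays were above vehicle arrays in both arms, and the rise was 0.12 ± 0.03 log2 (adjusted p = 0.0286), kept in 5 of 12 fits that left out an array. A dimmer probe set of the same symbol, at a mean of 6.49 log2, had the opposite sign, -0.15 log2, and was not called (adjusted p = 0.197), so the probe sets of UHRF1 disagree.

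CHAF1A and CHAF1B encode subunits of the chromatin assembly factor that loads histones behind the fork. CHAF1A with SRC-1 siRNA stood at 9.26, 9.15 and 9.19 log2 under estradiol, against 9.27, 9.14 and 9.17 log2 under vehicle. CHAF1A with non-targeting siRNA stood at 9.13, 9.20 and 9.30 log2 under estradiol, against 9.11, 9.06 and 9.17 log2 under vehicle. CHAF1A overlapped in both arms. CHAF1B with SRC-1 siRNA stood at 9.67, 9.63 and 9.61 log2 under estradiol, against 9.60, 9.67 and 9.64 log2 under vehicle. CHAF1B with non-targeting siRNA stood at 9.80, 9.69 and 9.67 log2 under estradiol, against 9.69, 9.78 and 9.70 log2 under vehicle. It overlapped too, with an estradiol difference of 0.00 log2. SLBP, which binds the stem-loop of histone mRNA, with SRC-1 siRNA stood at 9.34, 9.28 and 9.38 log2 under estradiol, against 9.51, 9.39 and 9.33 log2 under vehicle. SLBP with non-targeting siRNA stood at 9.35, 9.27 and 9.31 log2 under estradiol, against 9.33, 9.32 and 9.39 log2 under vehicle. SLBP averaged -0.06 log2 and none of the 3 was called (adjusted p = 0.427, 0.958 and 0.362).

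**Figure D3:**
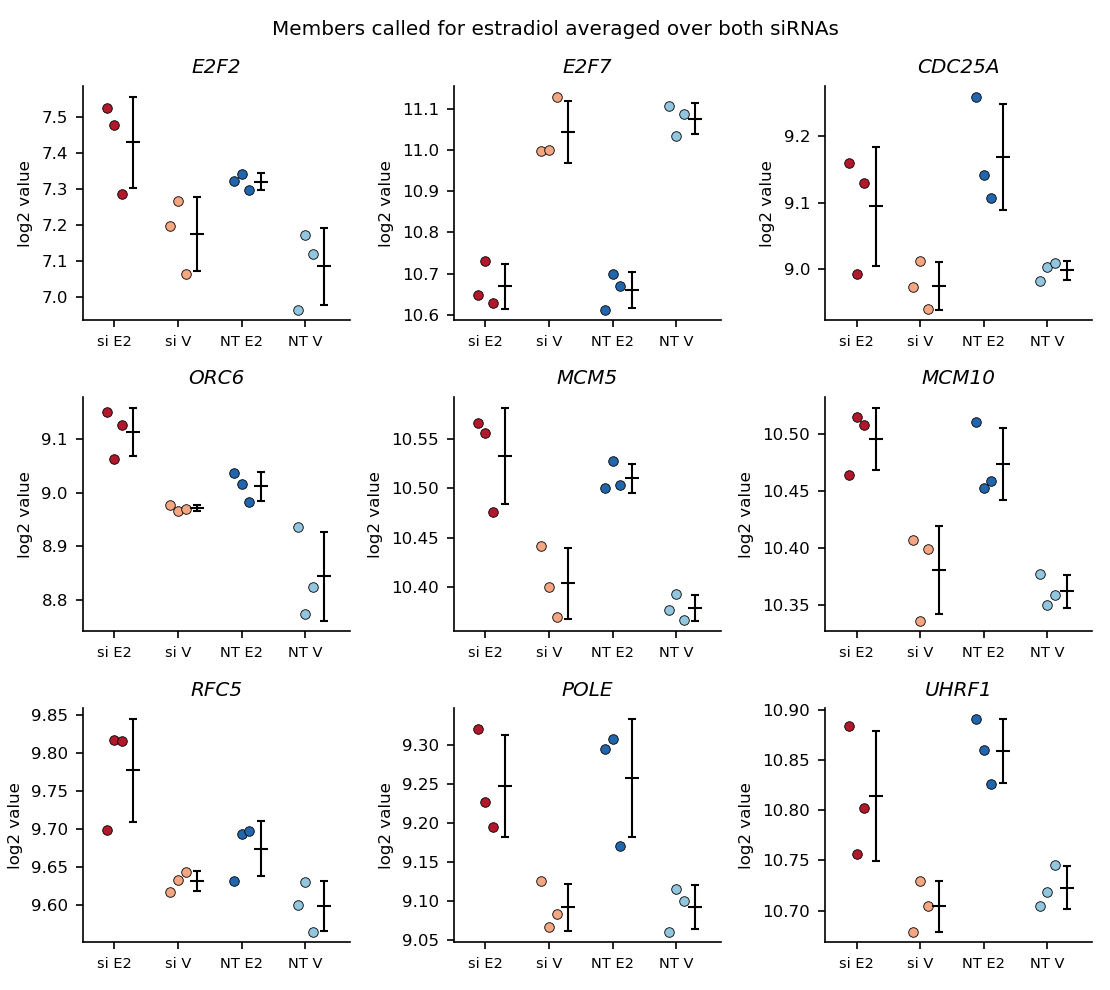
Each panel is 1 of the 9 genes called for estradiol averaged over both siRNAs, with the log2 value of every array as a point and the mean with its SD beside it, for SRC-1 siRNA with estradiol (si E2) and vehicle (si V) and non-targeting siRNA with estradiol (NT E2) and vehicle (NT V); the vertical axes differ between panels and do not start at 0. E2F7 is lower under estradiol by about 0.40 log2 and the other 8 are higher, with CDC25A overlapping between treatments in the SRC-1 siRNA cells.

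The calls differed in how far they depended on single arrays. E2F7, E2F2, ORC6, MCM5 and POLE were called in all 12 fits that left out 1 array, whereas UHRF1, MCM10, CDC25A and RFC5 were not. The count of 9 fell to 5 without replicate 3 of SRC-1 siRNA with estradiol, without replicate 1 of non-targeting siRNA with estradiol, or without replicate 2 of non-targeting siRNA with vehicle, and stayed between 5 and 8 in all 12 fits.

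The mean deviation of the 48 genes from their own means was 0.024 ± 0.035 log2 with SRC-1 siRNA and estradiol and -0.023 ± 0.028 log2 with SRC-1 siRNA and vehicle (SD, n = 3 each). With non-targeting siRNA it was 0.023 ± 0.027 log2 under estradiol and -0.024 ± 0.009 log2 under vehicle. Arrays of SRC-1 siRNA overlapped between treatments, and those of non-targeting siRNA did not. A shift in the same direction was seen in 4203 probe sets taken as controls, which are not part of the test. Those averaged 0.135 ± 0.042 log2 with SRC-1 siRNA and estradiol, against -0.091 ± 0.067 log2 with vehicle, and 0.032 ± 0.036 log2 with non-targeting siRNA and estradiol, against -0.076 ± 0.043 log2 with vehicle. With the array mean of these probe sets as a covariate, 0 of the 48 genes were called for the averaged estradiol effect and 212 of all probe sets were, while E2F7 kept an average of -0.40 log2 (adjusted p = 0.0751) and its call with non-targeting siRNA (-0.42 log2, adjusted p = 0.0224). E2F7 lost its call with SRC-1 siRNA (-0.39 log2, adjusted p = 0.317). With the covariate ORC6 had 0.09 log2, against 0.16 log2 without it, and MCM10 0.08 log2, against 0.11 log2, while E2F2 had 0.44 log2, against 0.24 log2 (adjusted p = 0.747, 0.714 and 0.137 with the covariate). The covariate separates the estradiol arrays from the vehicle arrays, so the part of either in the result cannot be told apart by this fit.

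**Figure D4:**
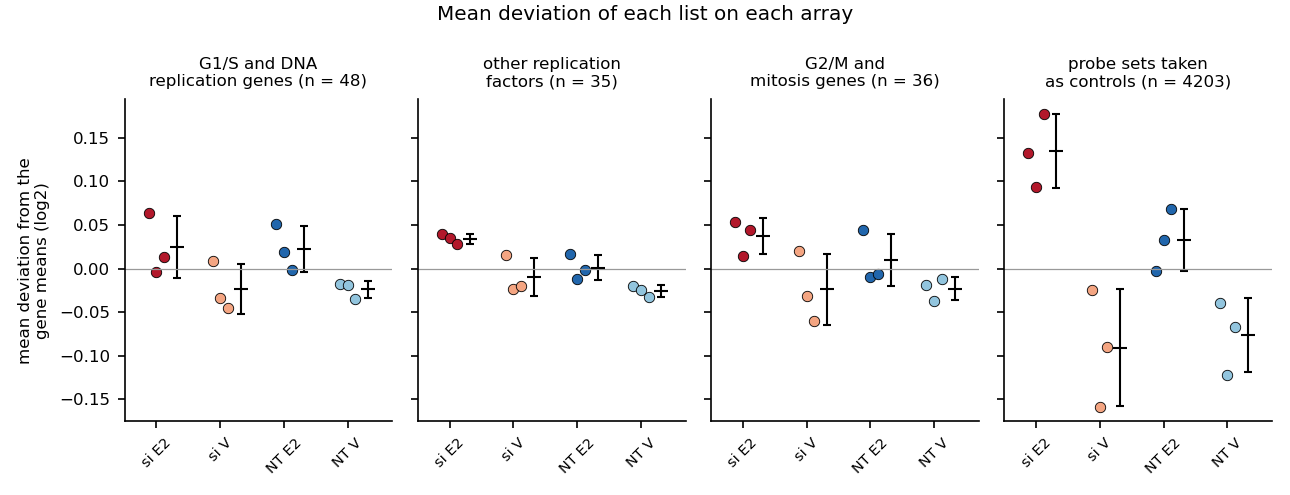
Points are arrays and bars the mean with its SD over 3 arrays; the vertical axis gives the mean log2 deviation of a list from the means of its own probe sets, for the 48 genes, the other replication factors, the G2/M and mitosis genes and the probe sets taken as controls, with groups ordered as SRC-1 siRNA with estradiol and vehicle, then non-targeting siRNA with estradiol and vehicle. The 48 genes average 0.024 and 0.023 log2 under estradiol and -0.023 and -0.024 log2 under vehicle, and the control probe sets are spread more widely in the same direction.

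For SRC-1 knockdown, 0 of the 48 genes were called by limma under vehicle, where 1.21% of all probe sets were, and 0 of 48 under estradiol, where 1.80% were. Averaged over both treatments the count was also 0, where 5.10% of all probe sets were called. An unadjusted p under 0.05 was reached by 4, 4 and 7 of the 48, beside 12.7%, 15.8% and 18.6% of all probe sets. The lowest adjusted p was 0.292 under vehicle, 0.243 under estradiol and 0.0842, for ORC6, in the average. The medians of the 48 were 0.00, 0.01 and 0.01 log2.

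Under vehicle the highest differences, leaving out the dim DBF4, were those of ORC6 (0.13 log2), UNG (0.11) and POLA1 (0.10), and the lowest those of GMNN (-0.13), POLA2 (-0.11), TK1 (-0.10) and RFC4 (-0.09). Under estradiol the highest were CCNE2 (0.16 log2), MCM4 (0.13) and E2F2 (0.11), and the lowest GMNN (-0.18), CDC6 (-0.14), GINS2 (-0.13) and CCNE1 (-0.09). GMNN was lowest under both treatments, without passing the test. Under each treatment the SRC-1 siRNA arrays of ORC6 lay above the non-targeting arrays, and those of CDC45 and CHAF1B below them. The share of all probe sets apart in this way was not counted. The 95% intervals lay within 0.3 log2 of 0 for 46 of the 48 genes under vehicle and for 45 of 48 under estradiol. Apart from DBF4, the bounds farthest from 0 were -0.30 (GMNN) and 0.32 log2 (CDC6) under vehicle, and -0.42 (CDC6) and 0.29 log2 (CCNE2) under estradiol.

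**Figure D5:**
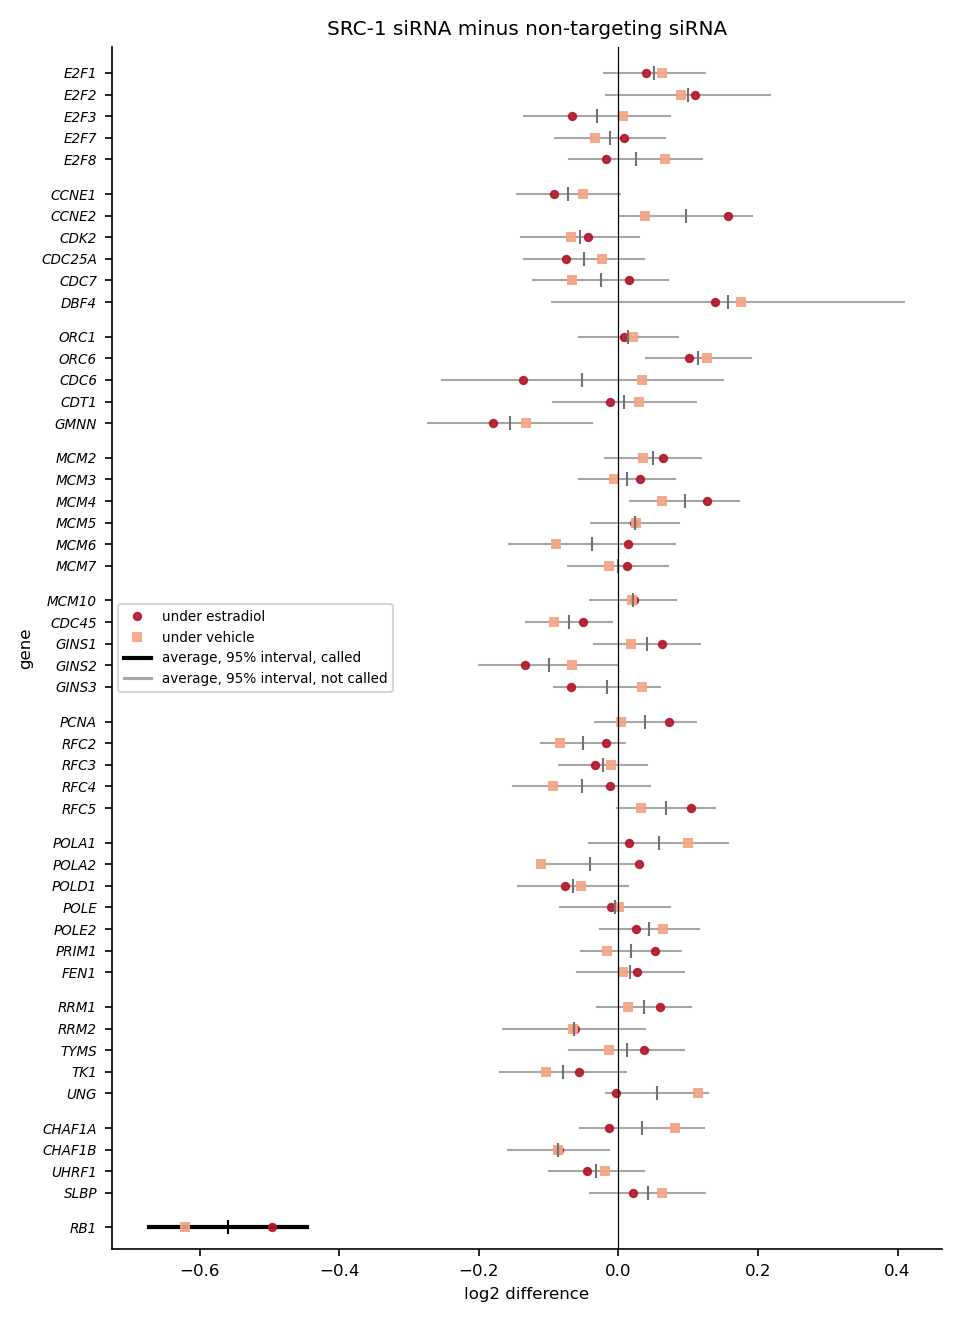
Each row is a gene and the horizontal axis gives the log2 difference, SRC-1 siRNA minus non-targeting siRNA; circles stand for estradiol, squares for vehicle, and the bar for the average with its 95% confidence interval, black where called. Of the rows only RB1, the last row, added for scale, is called, at -0.56 log2, and GMNN and ORC6 lie farthest from 0 among the 48 genes other than DBF4, whose dim signal gives no direction.

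The difference of the estradiol effects, SRC-1 siRNA minus non-targeting siRNA, was not called for any of the 48 genes by limma, nor for any probe set (0% called). POLA2 alone among the 48 had an unadjusted p under 0.05, beside 7.22% of all probe sets. Differences ran from -0.17 log2 (CDC6) to 0.14 log2 (POLA2), with UNG (-0.12), GINS3 (-0.10) and CHAF1A (-0.10) next at the low end and CCNE2 (0.12), MCM6 (0.10) and CDC7 (0.08) at the high end. The 95% intervals lay within 0.3 log2 of 0 for 44 of 48 genes, and they reached a median of 0.154 log2 to each side of the estimate.

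The other regulators of the G1/S step, 29 measured genes, moved in both directions with estradiol. In the average, 4 rose and 3 fell, or 24.1%, beside 9.96% of all probe sets, and the median of the list was 0.00 log2. CDKN1A and CDKN1B, which inhibit cyclin-dependent kinases, rose by 0.32 and 0.20 log2, and CCND1 (cyclin D1) and E2F6, a repressor, by 0.10 and 0.12 log2. MYC, a transcription factor that drives growth, fell by 0.42 log2, and the inhibitors CDKN2B and CDKN1C fell by 0.21 and 0.17 log2. With the control mean as a covariate none of the 7 was called: CDKN2B turned to 0.0022 log2 (adjusted p = 0.998), CDKN1C had -0.03 and CDKN1B 0.02 log2, and MYC had -0.44 log2 (adjusted p = 0.0534). MYC with SRC-1 siRNA stood at 10.89, 10.99 and 10.89 log2 under estradiol, against 11.37, 11.41 and 11.40 log2 under vehicle. MYC with non-targeting siRNA stood at 10.85, 10.98 and 10.99 log2 under estradiol, against 11.36, 11.27 and 11.31 log2 under vehicle. The treatments were apart in each arm, as they were for CDKN1A. CDKN1A with SRC-1 siRNA stood at 10.64, 10.78 and 10.61 log2 under estradiol, against 10.42, 10.38 and 10.41 log2 under vehicle. CDKN1A with non-targeting siRNA stood at 10.74, 10.81 and 10.67 log2 under estradiol, against 10.42, 10.28 and 10.41 log2 under vehicle. Both were called in each arm, where 2 of 29 genes of the list passed (6.9%). Of all probe sets 6.88% passed with SRC-1 siRNA and 2.73% with non-targeting siRNA.

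RB1, the gene of the retinoblastoma protein that restrains E2F factors, was the only gene of this list called with SRC-1 siRNA under each treatment. That is 3.45% of the list, beside 1.80% of all probe sets under estradiol and 1.21% under vehicle. RB1 under estradiol stood at 9.75, 9.70 and 9.74 log2 with SRC-1 siRNA, against 10.27, 10.19 and 10.22 log2 with non-targeting siRNA. RB1 under vehicle stood at 9.76, 9.49 and 9.67 log2 with SRC-1 siRNA, against 10.29, 10.14 and 10.36 log2 with non-targeting siRNA. The siRNAs were apart under both treatments, with differences of -0.50 log2 (1.41-fold lower, adjusted p = 0.00623) and -0.62 log2 (1.54-fold lower, adjusted p = 0.00181). Averaged over treatments, 13.8% of the list was called, beside 5.10% of all probe sets. In that average CCND3 and E2F6 also fell, by 0.14 and 0.13 log2, and SKP2, which targets CDKN1B for breakdown, rose by 0.11 log2. On every SRC-1 siRNA array CCND3 and E2F6 lay below, and SKP2 above, the non-targeting arrays of the same treatment. The share of all probe sets apart in this way was not counted. Whether the siRNA pool acts on these transcripts directly was not tested.

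Among the other replication factors, 35 measured genes, 2 rose with estradiol in the average and 0 fell (5.71%, beside 9.96% of all probe sets). DNA2, a nuclease and helicase that trims Okazaki fragments, rose by 0.24 log2, and ATAD5, which unloads PCNA, by 0.17 log2. DNA2 with SRC-1 siRNA stood at 8.62, 8.74 and 8.62 log2 under estradiol, against 8.45, 8.29 and 8.41 log2 under vehicle. DNA2 with non-targeting siRNA stood at 8.49, 8.39 and 8.43 log2 under estradiol, against 8.26, 8.28 and 8.16 log2 under vehicle. Its treatments did not overlap in either arm. Averaged over treatments, SRC-1 siRNA raised 3 genes of the list and lowered 0 (8.57%, beside 5.10% of all probe sets). The 3 were DNA2 (0.19 log2), TICRR (0.16 log2), which brings CDC45 to origins, and POLD3 (0.12 log2), a subunit of the lagging-strand polymerase. TICRR under estradiol stood at 10.75, 10.70 and 10.73 log2 with SRC-1 siRNA, against 10.43, 10.47 and 10.54 log2 with non-targeting siRNA. TICRR under vehicle stood at 10.73, 10.61 and 10.60 log2 with SRC-1 siRNA, against 10.61, 10.52 and 10.58 log2 with non-targeting siRNA. The siRNAs were apart under estradiol and overlapped under vehicle.

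The G2/M and mitosis genes, 36 measured, gave 2 risers with estradiol in the average (5.56%, beside 9.96% of all probe sets). These were TOP2A (0.14 log2), the topoisomerase of dividing cells, and UBE2C (0.10 log2), which serves the anaphase-promoting complex. The median of this list was 0.04 log2, that of the other replication factors 0.03 log2 and that of the 48 genes 0.05 log2. The lists were not tested against each other. With SRC-1 siRNA, KIF23, a motor of cytokinesis, fell by 0.12 log2 in the average over treatments. It was the only call of the list, or 2.78%, beside 5.10% of all probe sets.

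Within groups, the 48 genes deviated together weakly. The median Pearson correlation over their 1128 pairs was 0.148 on 12 arrays, beside 0.231 for the G2/M and mitosis genes and 0.034 for the other replication factors. By role the median was highest for nucleotide supply and uracil removal, 0.585 over 10 pairs, and 0.357 for MCM2 to MCM7 over 15 pairs. Genes of a pair share the array and its normalization.

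E2F sites were frequent in the promoters of the 48 genes, which were chosen by function, so their share is a description. RefSeq windows matched 43 of the 48 genes, 11 of them with more than 1 window, and CCNE2, E2F8, MCM5, MCM4 and CDK2 had none to search. An E2F site was found in 24 of 43, or 55.8%, beside 3.99% of 27305 genes with windows of the same length, 33.3% of other replication factors, 12% of the other G1/S regulators and 9.68% of the G2/M and mitosis genes. The 33 sites had their centres between positions -183 and 11 relative to the start. Sites are shown with 10 bases on each side, with the E2F letters in capitals, for called genes that hold one beside E2F2 shown above, and for E2F1, CDC6 and MCM2, whose estradiol differences were not called.
CDC25A: gtggattccgTTTGGCGCcaactaggaa
POLE: aggggagaaaTTTGGCGCgctcccaccc
UHRF1: ctctgattttTTTCCCGCgaaaactcgg
UHRF1: ccgagcccgaTTTCGCGCgccctgagtt
E2F1: ccaaatccttTTTGCCGCgaaagagcca
E2F1: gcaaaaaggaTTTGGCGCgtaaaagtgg
CDC6: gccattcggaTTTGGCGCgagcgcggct
MCM2: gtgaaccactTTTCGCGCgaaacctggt
MCM2: aacaaccaggTTTCGCGCgaaaagtggt
The positions and strands of these sites are chr3:48188444-48188471 (minus) for CDC25A, chr12:132687343-132687370 (plus) for POLE, chr19:4909477-4909504 (minus) and chr19:4909974-4910001 (plus) for UHRF1, chr20:33686401-33686428 (plus) and chr20:33686388-33686415 (minus) for E2F1, chr17:40287876-40287903 (plus) for CDC6 and chr3:127598403-127598430 (plus) and chr3:127598407-127598434 (minus) for MCM2 (GRCh38.p14). The MCM2 sites overlap on opposite strands.

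The 24 genes with a site had a median estradiol difference of 0.06 log2, and 4 rose and 0 fell. The 19 without a site had a median of 0.02 log2, and 3 rose and 1, E2F7, fell. The 5 genes with no window to search had a median of 0.09 log2, and 1 of them, MCM5, rose. Across the whole array, risers made up 6.11% of the probe sets tested and fallers 3.85%. The genes with and without a site were not tested against each other. The windows of POLE and ORC6 are shown as the risers with the next highest differences, the first with an E2F site and the second without. POLE lies at chr12:132687293-132687592 on the minus strand and ORC6 at chr16:46689409-46689708 on the plus strand, and capitals mark the same elements as above.
POLE: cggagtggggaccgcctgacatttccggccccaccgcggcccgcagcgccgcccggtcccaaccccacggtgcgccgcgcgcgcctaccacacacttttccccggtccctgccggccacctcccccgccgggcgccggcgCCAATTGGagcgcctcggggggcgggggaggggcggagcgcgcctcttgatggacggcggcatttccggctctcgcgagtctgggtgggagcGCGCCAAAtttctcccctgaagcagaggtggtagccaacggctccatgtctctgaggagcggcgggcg
ORC6: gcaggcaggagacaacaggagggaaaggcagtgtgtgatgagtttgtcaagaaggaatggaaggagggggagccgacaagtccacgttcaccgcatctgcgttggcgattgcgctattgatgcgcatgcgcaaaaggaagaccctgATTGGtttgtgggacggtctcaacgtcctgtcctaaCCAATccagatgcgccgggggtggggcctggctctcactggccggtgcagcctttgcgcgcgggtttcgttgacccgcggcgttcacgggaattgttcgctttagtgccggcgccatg
POLE held TTTGGCGC on the opposite strand, printed as GCGCCAAA, and CCAAT boxes that overlap on both strands, and ORC6 held 2 CCAAT boxes, 1 on each strand. CCAAT was found in 60.5% of the 43 genes and 39.7% of all, and the CHR element of mitotic promoters (TTTGAA or TTCGAA) in 11.6% of the 43, 19.5% of all and 77.4% of the G2/M and mitosis genes. The full palindromic estrogen response element, searched with any 3 bases as its spacer, was in 0 of 43 windows and 0.0732% of all.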

How the data were processed

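The authors deposited 1 log2 expression value per probe set and array, made with the affy package and tested with limma, per the submitters' processing notes; versions, background correction, normalization and summarization are not given in the sources used here. No step was applied to them before the fit. From the 33297 probe sets, 4203 were set aside as controls because their identifiers lie below 7896740, an inference from the identifiers. Of the 29094 tested, 19460 carry 1 symbol in the platform annotation, 1754 several and 7880 none.

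A linear model with 4 group means was fitted by limma 3.58.1 under R 4.3.3 over the 12 arrays (lmFit and eBayes, 3.15 prior and 8 residual degrees of freedom, two-sided). Calls needed p under 0.01 and, after Benjamini-Hochberg adjustment over all probe sets tested, p under 0.05, as in the design text. A positive difference is higher with estradiol or with SRC-1 siRNA. The median standard error was 0.0711 log2 between 2 groups and 0.0503 log2 for averages. With 3 arrays against 3, an exact permutation test of a single gene cannot go below p = 0.1, so none was run. Depth does not apply to arrays; their number limits the precision.

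The 48 genes and the other lists, with 1 probe set per gene, were chosen with earlier results of these data known. Values on every array are given for genes called in any of 7 comparisons and for the 4 highest and 4 lowest differences of each; of other lists, called genes are named. The fit was also run on simulated data with independent noise and no shift of control probe sets. The planted differences were larger than those of most called risers, so that run does not show how reliable these calls are. Same-numbered arrays of different groups correlated at -0.035 to 0.209 in their deviations from the group means, most of them above 0. Arrays of unlike number were not compared, so pairing by replicate number was not settled, and the main fit has no replicate block. Replicate 1 had the lowest array median and the highest mean deviation of the 48 genes in each group. A GSK3 siRNA pool named in the design text is not analysed here. Alternatives tried were a replicate block, fitting only the compared arrays, leaving out the dimmest 40% of probe sets, a trended and robust variance, median centring, renewed quantile normalization, all probe sets, the control mean as a covariate, and each array left out. Promoter windows were searched with Python 3.11.15.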

Additional observations from a re-analysis of the deposited data

Results flagged for a closer look

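The probe sets taken as controls, which enter none of the comparisons, differed between treatments. Their mean deviation was 0.135 ± 0.042 log2 with SRC-1 siRNA and estradiol, against -0.091 ± 0.067 log2 with SRC-1 siRNA and vehicle (SD, n = 3 each). With non-targeting siRNA it was 0.032 ± 0.036 log2 under estradiol, against -0.076 ± 0.043 log2 under vehicle. Estradiol minus vehicle came to 0.1671 log2 averaged over both siRNAs, and 545 of 4203 of these probe sets were called higher and 15 lower. They were set apart by their identifiers alone, and what they measure was not tested.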

How the results depend on the processing

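For the knockdown effects under vehicle and under estradiol and for the difference of the estradiol effects, 0 of the 48 genes were called in every alternative run. For the averaged estradiol effect the 9 calls became 0 with the control mean as a covariate, which separates the treatments, and 5 to 8 with single arrays left out; renewed quantile normalization gave 7, losing CDC25A and RFC5, and the other settings 9 to 13. With non-targeting siRNA the 1 call became 2 without the dimmest probe sets and 3 with a trended and robust variance. With SRC-1 siRNA it became 6 in each of those settings, 2 with median centring, 0 with the covariate, and 1 to 2 with single arrays left out, where 2 were called without replicate 1 (RFC5) or 3 (E2F2) of SRC-1 siRNA with estradiol. For the averaged knockdown effect the 0 became 1, ORC6, without the dimmest probe sets or with the trended variance. It ranged from 0 to 1 with single arrays left out: without replicate 1 of non-targeting siRNA with vehicle ORC6 was called higher, and without replicate 1 of SRC-1 siRNA with estradiol GMNN was called lower. CDKN2B turned to 0.0022 log2 with the covariate, against -0.21 log2 otherwise. The replicate block gave 10 calls for the averaged estradiol effect, adding TK1, and whether the numbers pair the arrays was not settled. The causes were not tested. Over all probe sets the averaged estradiol effect had 2898 calls, and from 212 to 3725 over the alternatives. Signal over background was not measured, and the mean of DBF4 lies under the lower quartile of the arrays.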
